A study of Mus musculus with 10 samples.

Results

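Binding of the aryl hydrocarbon receptor (AHR) was described at 8 genes that mark the fetal-like, regenerative state of the colonic epithelium, namely Ly6a, Clu, Anxa1, Il33, Il1rn, Ereg, Areg and Spp1. The genes were set as a list, and every peak that overlapped the gene body or the 10 kb on either side (GENCODE release M21, mouse assembly mm10) was assigned to them. This gave 19 of the 123652 peaks of the wild type (WT) list, at 7 of the 8 genes, and 0 of the 1931 peaks of the AHR KO list. The data were chromatin immunoprecipitation with sequencing (ChIP-seq) of AHR in mouse colon organoids, epithelial cultures grown from intestinal stem cells. All organoids were kept in WENR medium and were given 5 nM of the AHR ligand FICZ for 1 h, so every group carried the same treatment and none was left without ligand. The groups were WT organoids with 4 AHR ChIP and 4 input libraries, and AHR KO organoids, in which the Villin-Cre transgene deletes a floxed Ahr in gut epithelium, with 1 AHR ChIP and 1 input library. The WT list covers the 4 cultures together and holds no value per culture, and the KO list rests on 1 ChIP library, so no difference between genotypes has a replicate check. Peak lists hold no expression values, so neither the loss of Ahr in the KO organoids nor the level of any of the 8 genes was measured here.

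The word TNGCGTG, where N is any base and GCGTG is the core, is the DNA sequence recognised by AHR paired with ARNT. Ligands such as FICZ bring AHR into the nucleus, where it acts as a transcription factor. After injury the colonic epithelium switches on genes of the fetal gut under the control of YAP and its DNA-binding partners, the TEAD factors, and WENR medium holds organoids in a related stem-like state. Ereg and Areg encode epiregulin and amphiregulin, ligands of the epidermal growth factor receptor. Il33 encodes an alarmin cytokine of the interleukin-1 family that signals through Il1rl1, and Il1rn encodes the secreted antagonist of the interleukin-1 receptor. Ly6a encodes Sca-1, the surface antigen by which regenerating epithelium is sorted. Clu encodes the secreted chaperone clusterin, which marks revival stem cells, Anxa1 encodes a phospholipid-binding protein of the annexin family, and Spp1 encodes osteopontin, a secreted ligand of integrins and CD44.

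Each peak has a score given by the authors, the fold enrichment of the ChIP pileup plus 1 over the expected background plus 1. The median score of the WT list was 5.32 (quartiles 4.53 and 5.98), the highest 10% began at 7.14, and the largest score was 60.4. The scores of 63811 WT peaks fell on a step of 0.332, the size of 1 fragment over a genome-wide background of 2.01 fragments, and those of 334 KO peaks fell on a step that corresponds to 0.287 fragments. Of the 19 member peaks, 9 were on the WT step, and a pileup in fragments is given only for these. Scores were not compared between the lists.

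The sequences of the highest-scoring peaks at 4 of the genes are shown, with a CA or TG tract in 3 of them and another repeat at Ly6a. All are from the plus strand of GRCm38, with the copies of CACACA or TGTGTG in capitals, the letters by which a CA repeat was called. They are the Ereg peak 4.48 kb past the end of the gene (the 200 bp around its midpoint, chr5:91098030-91098229, score 10.6), an intronic Il33 peak (chr19:29952058-29952307, score 6.08), the Ly6a peak (chr15:74990722-74990902, score 3.77) and the intronic Clu peak (chr14:65970646-65970894, score 6.98).
Ereg: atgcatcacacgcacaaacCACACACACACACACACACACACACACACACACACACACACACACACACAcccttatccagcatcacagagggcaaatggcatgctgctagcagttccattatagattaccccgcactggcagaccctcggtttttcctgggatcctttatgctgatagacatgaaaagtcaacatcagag
Il33: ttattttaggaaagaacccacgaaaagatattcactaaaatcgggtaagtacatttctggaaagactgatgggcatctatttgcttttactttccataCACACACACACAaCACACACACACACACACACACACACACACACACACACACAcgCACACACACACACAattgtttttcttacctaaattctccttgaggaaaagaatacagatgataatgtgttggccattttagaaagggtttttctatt
Ly6a: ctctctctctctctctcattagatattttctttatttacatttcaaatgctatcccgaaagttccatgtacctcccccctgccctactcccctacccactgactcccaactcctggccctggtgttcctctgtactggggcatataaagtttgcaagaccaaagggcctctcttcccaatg
Clu: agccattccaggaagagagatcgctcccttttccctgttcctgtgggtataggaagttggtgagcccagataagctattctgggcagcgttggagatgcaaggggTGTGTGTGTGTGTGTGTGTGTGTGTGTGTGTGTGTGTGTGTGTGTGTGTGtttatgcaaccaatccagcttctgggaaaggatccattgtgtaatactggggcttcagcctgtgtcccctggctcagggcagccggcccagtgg
The Ereg, Il33 and Clu peaks each held an unbroken CA or TG tract, of 50, 42 and 52 bp. The Ly6a peak held no CA repeat and was lower-case repeat sequence, as annotated in the genome, over 94.5% of its bases. At Areg, Anxa1 and Spp1, the 200 bp around the midpoint of the best peak was not called a CA repeat. Those sequences are not reported here. CA repeats were thus called at 3 of the 7 best peaks.

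At the EGF receptor ligands, Ereg had 3 WT peaks and Areg had 1. Ereg lies at chr5:91074622-91093646 on the plus strand (ENSMUSG00000029377.5) and Areg downstream of it at chr5:91139599-91148432, also on the plus strand (ENSMUSG00000029378.5). The Ereg peak past the gene end (chr5:91097917-91098343) had the highest score of all 19, 10.6, which corresponds to a pileup of 31 fragments and rank 869 of the WT list. It lay 23.5 kb from the Ereg start, in no annotated gene. An intronic Ereg peak at chr5:91079823-91080045, 5.31 kb into the gene, scored 6.51, and a peak at chr5:91071171-91071368, 3.35 kb upstream of the start and inside the antisense gene Gm19610, scored 4.65. All 3 Ereg windows were CA repeats, with 8, 7 and 12 copies in that order. The highest Ereg score exceeded the best score of 97% of protein-coding genes, genes without a peak counted as lower. Ereg was the only member with a peak in the highest 10% of scores, against 23% of all protein-coding genes.

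The single Areg peak lay 1.11 kb upstream of the Areg start and scored 6.65, a pileup of 19 fragments. It was the only one of the 19 peaks to hold TNGCGTG anywhere in its length, and the word stood outside the 200 bp around the midpoint.
The word itself was in lower-case repeat sequence in the genome, 1.22 kb upstream of the start.

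Ereg carried AHR-ARNT words at its start with no peak over them. Of its 5 TNGCGTG words, 1 lay 56 bp and 1 lay 877 bp upstream of the start, and the nearest peak was 3.2 and 2.38 kb away. Both are shown with 20 bases on either side and the word in capitals, at chr5:91074543-91074589 and chr5:91073722-91073768. The second reads on the minus strand and so appears as its reverse complement.
Ereg word near the start: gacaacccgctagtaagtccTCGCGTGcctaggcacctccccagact
Ereg word further upstream: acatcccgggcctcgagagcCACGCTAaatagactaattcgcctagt
These were the only TNGCGTG words within 1 kb of the start of any of the 8 genes. Another Ereg word lay 213 bp from the intronic peak, the closest approach of a word to a peak it did not overlap.

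The interleukin-1 family members differed in their number of peaks, 5 at Il33 and 0 at Il1rn. Il33 lies at chr19:29925114-29960718 on the plus strand (ENSMUSG00000024810.16). Its highest peak, in an intron 27.1 kb from the start, scored 6.08, and the other intronic peak, at chr19:29932402-29932638 and 7.41 kb from the start, scored 5.65. A peak upstream, at chr19:29914923-29915119, touched the window only with its edge, with its midpoint 10.1 kb from the start, and scored 5.32. Downstream of the gene, the peak at chr19:29968401-29968584 scored 5.59 and the peak at chr19:29970056-29970310 scored 5.32. The Il33 scores thus spanned only 5.32 to 6.08, none below the median of the list. The downstream pair was closer to the start of Trpd52l3 (35.3 and 33.6 kb) than to that of Il33 (43.4 and 45.1 kb). CA repeats were called in 4 of the 5 windows, with 4 to 10 copies. The window of the other peak was 100% repeat. Over its whole length that peak was almost free of C and T on the plus strand (1.57% of its bases), and 72.9% of its read-length words occurred once in the genome. The Il33 gene and flanks, the longest window of the 8 at 55.6 kb, held no TNGCGTG word.

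Il1rn was the member without a peak. It lies at chr2:24336853-24351494 on the plus strand (ENSMUSG00000026981.15), and the nearest WT peak, at chr2:24366509-24366754, was 15 kb past its end with a score of 6.31 and 7 CA copies. The Il1rn window held 3 TNGCGTG words, and the nearest of them to a peak was 12.4 kb away. A RefSeq promoter of Il1rn, here the 250 bases before its start (GRCm38.p6, chr2:24336610-24336859, plus strand), held a GCGTG core on the minus strand 136 bp before the start and the AP-1 word TGACTCA on the same strand, with the words sharing 2 bases. It is shown, with both in capitals, because it was the only one with a core among the RefSeq promoters matched to 5 of the members, while Ereg, not among the 5, held the word 56 bp before its start shown earlier.
Il1rn promoter: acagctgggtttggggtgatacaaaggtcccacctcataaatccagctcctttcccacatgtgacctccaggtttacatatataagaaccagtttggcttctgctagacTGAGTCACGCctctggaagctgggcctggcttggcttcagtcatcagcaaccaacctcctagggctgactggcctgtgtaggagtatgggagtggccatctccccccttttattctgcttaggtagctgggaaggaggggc
Of 32851 RefSeq promoters of 300 bases, 250 before and 50 after the start, 32.4% held GCGTG, 5.07% held TNGCGTG, 5.20% held TGACTCA and 14.7% held GGAATG, the TEAD word, each searched on both strands. The table covered 5 of the 8 genes (Anxa1, Il33, Il1rn, Areg and Spp1) with 9 promoters. GGAATG was present in the Anxa1 promoter, in both Il33 promoters and in 1 of 3 Il1rn promoters, and none of the 9 held TNGCGTG. No WT peak overlapped any of the 9 promoters, and the closest approach was 740 bp at Areg, followed by 1.53 kb at Anxa1. The share of all RefSeq promoters that a WT peak overlaps is not given here. The lack of overlap therefore has no background and is not read as a property of these genes.

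The surface antigen gene Ly6a had the weakest signal among the bound members. Its peak, 4.07 kb past the end of the gene (chr15:74994877-74998031, minus strand, ENSMUSG00000075602.10), scored 3.77, lower than 91.7% of the WT list. The window was 95% repeat with no CA copy. The same peak fell within 10 kb of the paralogue Ly6i, so it cannot be assigned to Ly6a alone. Every read-length word of the peak occurred once in the genome.

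Clu had 1 peak, in an intron 2.29 kb from the start of the gene (chr14:65968483-65981547, plus strand, ENSMUSG00000022037.15). It scored 6.98, a pileup of 20 fragments, the second highest of the 19 peaks and just under the start of the highest 10% of the list. Its TG tract of 52 bp stood near the middle, and 36.1% of the peak was annotated as repeat. The Clu window held 5 TNGCGTG words, all outside the peak, the nearest 862 bp from it.

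Anxa1 had the most peaks of the 8 genes, 6 in 37.5 kb. Per 100 kb of window this was 16 peaks, more than at 98.8% of protein-coding genes, whose median was 4.00. Anxa1 lies at chr19:20373428-20390944 on the minus strand (ENSMUSG00000024659.15), and all 6 peaks also lay inside the overlapping lincRNA gene 1500015L24Rik. From upstream to downstream of Anxa1, the peak 1.66 kb before the start (chr19:20392454-20392754) scored 5.57. The intronic peaks, 15.1 and 16.9 kb from the start (chr19:20375730-20376012 and chr19:20373869-20374178), scored 6.25 and 4.03. The 3 peaks past the gene end, 21.2, 24.5 and 27.1 kb from the start (the outer of them at chr19:20369612-20369832 and chr19:20363706-20363938), scored 5.65, 6.58 and 2.91. All 6 scores were under the start of the highest 10% of the list, and 2.91 was the lowest of the 19 peaks. CA repeats were called in 3 of the 6 windows, with 8 to 11 copies.

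The intronic Anxa1 peak that scored 6.25 held 4 copies of the GCGTG core, the most of any member peak. It is shown with the core, or its reverse complement CACGC, in capitals.
Anxa1 intron: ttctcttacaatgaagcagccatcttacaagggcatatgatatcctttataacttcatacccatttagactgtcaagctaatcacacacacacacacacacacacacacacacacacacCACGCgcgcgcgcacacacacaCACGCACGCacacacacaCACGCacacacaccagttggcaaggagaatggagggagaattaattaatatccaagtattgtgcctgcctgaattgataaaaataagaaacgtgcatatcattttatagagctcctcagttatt
All 4 copies stood inside or at the edge of the CA tract, where a CA run is broken by CG. None was preceded by the T of the full TNGCGTG word.

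Of the 7 peaks without a CA repeat, some shared other repeat sequence, of which the stretches at Anxa1 and Ly6a are given here. The lowest Anxa1 peak (score 2.91) and the intronic Anxa1 peak that scored 4.03 had an exact stretch of 36 bases in common, in opposite orientation, which occurred 13281 times in the genome. The same intronic peak shared 28 bases with the Ly6a peak, in the same orientation, and this stretch occurred 21615 times.
Shared by both Anxa1 peaks: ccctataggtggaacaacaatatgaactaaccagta
Shared by Anxa1 and Ly6a: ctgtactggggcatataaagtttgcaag
In the intronic Anxa1 peak only 30.5% of read-length words were unique, and the most repeated occurred 340 times, whereas every such word of the other 2 peaks was unique. The sources used here do not give how reads with several alignments were counted, and their part in these scores was not tested.

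Spp1 had 2 peaks, both upstream of the gene (chr5:104435118-104441050, plus strand, ENSMUSG00000029304.14) and both in windows that were 100% repeat. The peak 6.03 kb before the start scored 6.31, and the peak 3.46 kb before it (chr5:104431488-104431832) scored 5.26 with 14 CA copies, the most of the 19. The higher peak had no CA copy, and 89.4% of its read-length words were unique. The only TNGCGTG word of the Spp1 window lay 269 bp from the lower peak.

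**Figure D1:**
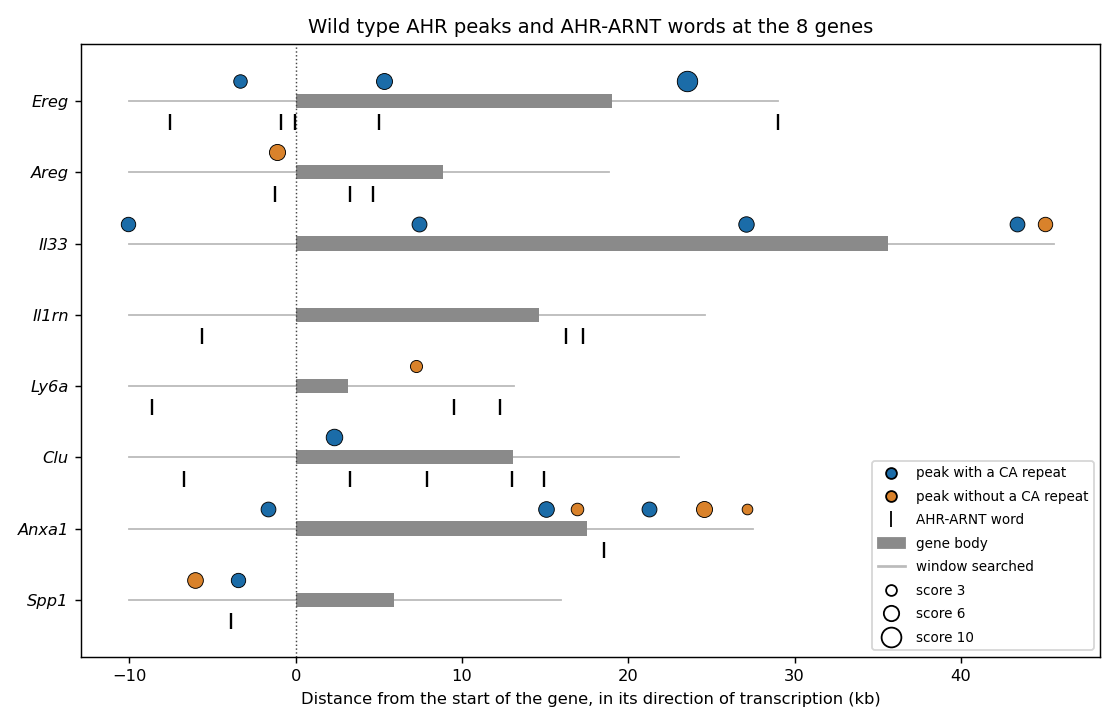
Position of each WT peak (circles, area in proportion to the score, placed at the midpoint) and each TNGCGTG word (AHR-ARNT word, ticks) in kb from the start of the gene, in the direction of transcription, with the gene body as a thick bar and the window searched as a thin line. Il1rn has words but no peak, Il33 has peaks but no word, and the 2 words nearest to a gene start, at Ereg, have no peak over them.

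Across the 8 genes, 7 had a WT peak, which is 87.5% (95% Wilson interval 52.9% to 97.8%). The background was 78.3% of 21938 protein-coding genes, or 71.7% of the 15828 with a window between 20 and 60 kb, the size range of the 8. A WT peak was thus present at most genes of any kind, and the share among the members lay near that background. The members had a median of 1.5 peaks, 6.0 peaks per 100 kb and, over the 7 with a peak, a best score of 6.58. Over all protein-coding genes the medians were 2 peaks, 4.00 per 100 kb (quartiles 1.73 and 6.60) and a best score of 6.31, and over those with a window of 20 to 60 kb they were 1 peak, 3.88 per 100 kb and 5.98. Wilson intervals and limits on counts of 0 cover counting error only.

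The 19 scores had a median of 5.65 and ran from 2.91 to 10.6. Against the WT median of 5.32, 12 were above, 2 at it and 5 below. In order of the best score the genes ran Ereg, Clu, Areg, Anxa1, Spp1, Il33 and Ly6a. From Clu to Il33 the best scores lay between 6.98 and 6.08, a narrow range. The best peaks of Clu, Areg and Spp1, which were on the step, had pileups of 20, 19 and 18 fragments, so the order of these 3 genes rests on single fragments. Ereg at 10.6 stood above that range and Ly6a at 3.77 below it.

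**Figure D2:**
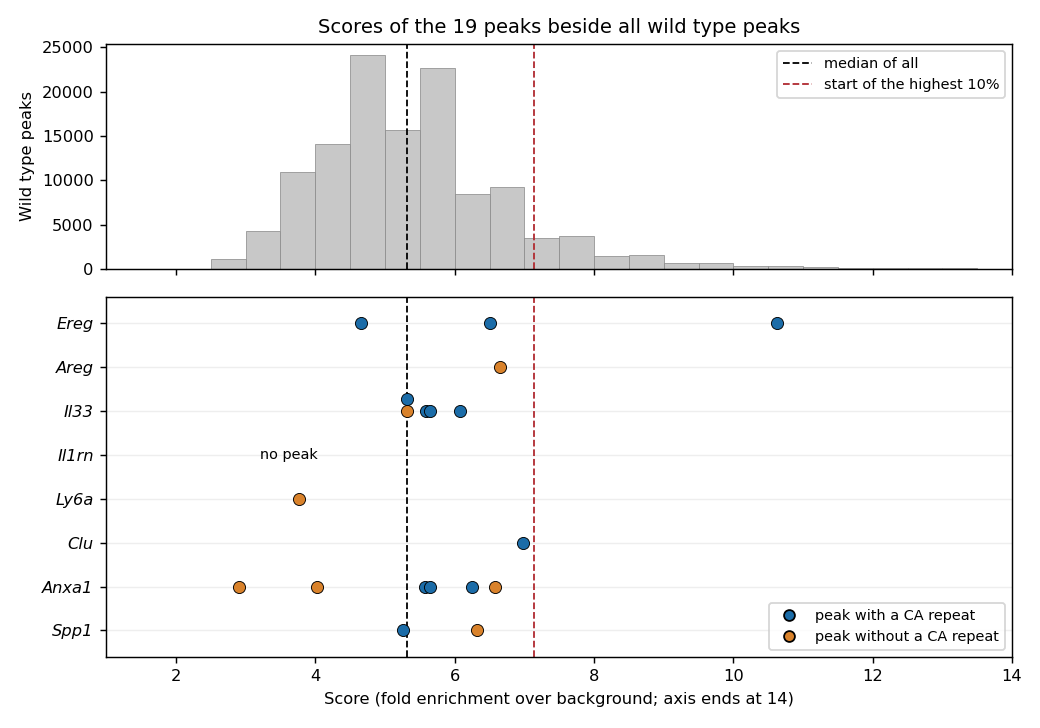
Number of WT peaks by score (upper panel) and the scores of the 19 peaks by gene (lower panel, 1 point per peak, points of equal score stacked), with the median of all WT peaks and the start of the highest 10% as dashed lines. The x axis ends at 14 although the largest score of the list is 60.4. The Ereg peak at 10.6 is the only member peak to the right of the 10% line.

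By the position of the midpoint, 6 of the 19 peaks were intronic, 6 upstream and 7 downstream. None was in an exon, beside 1.7% of the 58854 WT peaks within 10 kb of a protein-coding gene, and none lay within 1 kb of a gene start, beside 2.45%. The Areg and Anxa1 peaks upstream of the genes lay within 2 kb of a start, 2 of 19 or 10.5% (2.94% to 31.4%), beside 5.63%. The counts in exons and within 1 and 2 kb of a start lay near the background. No share of the whole list is given for the intronic, upstream and downstream counts. The median width was 249 bp, against 228 bp over all WT peaks, with a range of 181 to 427 bp.

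The 19 peaks lay in repeat sequence, as did most of the WT list. In the 200 bp around the midpoint, 12 were CA repeats (CACACA or TGTGTG, 3 or more copies apart from each other), which is 63.2% (41.0% to 80.9%) beside 57.3% of all WT windows. The unbroken CA tracts of these 12 were 14 to 52 bp long, and 7 exceeded 40 bp. At least 50% of the window was lower-case repeat in 14 of 19, 73.7% (51.2% to 88.2%), beside 86.1% of all WT windows. The 7 windows without a CA repeat were all at least 50% repeat, and windows with neither were also rare in the whole list, at 1.21%. The least repeat window had 35% of its bases in lower case, and 0.45% of all WT windows had under 25%. The median was 80%, against 86.5% over all WT windows. Peaks with a CA repeat had a median score of 5.65 (4.65 to 10.6) and the 7 without one a median of 5.32 (2.91 to 6.65), and over the whole list the medians were 5.65 and 4.65. Every read-length word was unique in 15 of 19 peaks (78.9%), beside 68.7% of the list.

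**Figure D3:**
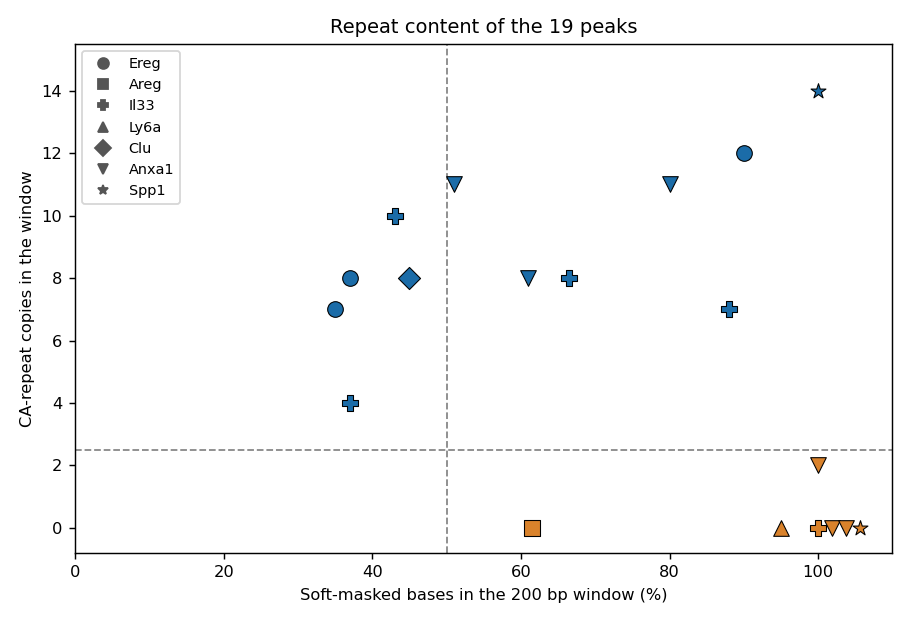
Lower-case (repeat) bases as a percentage of the 200 bp window (x axis) against the number of CA copies (y axis) for the 19 WT peaks, with the gene as the symbol, blue for CA repeats and orange for the rest. The dashed lines mark 50% and the limit of 3 copies, and 4 points at 100% with no copy are set side by side to the right of 100. The lower left corner, with neither kind of repeat, is empty, and it holds 1.21% of all WT windows.

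The AHR-ARNT word TNGCGTG was in 0 of 19 windows, which allows a share of up to 15.8%, beside 2.84% of all WT windows. Its core GCGTG was in 4 windows at 3 genes (Anxa1, Il33 with 2, and Ereg), 21.1% (8.51% to 43.3%) beside 17.7%, and all 4 were CA repeats. The AP-1 word TGACTCA, which reads TGAGTCA on the other strand, was in 0 windows beside 1.27%. The TEAD word GGAATG was in 1 window (5.26%), at the upstream Il33 peak, beside 7.24%. Outside the 200 bp windows, a peak also overlapped 1 GGAATG word at Clu and 1 at Ereg. For each of these properties the share of the whole list lay inside the interval of the 19 peaks, so a difference from the list was not detectable with 19 peaks.

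AHR-ARNT words were counted over the gene windows as well as under the peaks, which cover a small part of them. The windows held 21 TNGCGTG words, 7.56 per 100 kb beside 6.84 over the genome, and 19 of them were outside lower-case sequence. Of the 21, 1 lay in a peak, at Areg, and the median distance to the nearest peak was 4.07 kb, up to 32.5 kb at Il1rn. The share of words in WT peaks over the genome is not given, for TNGCGTG or the other words. Counts of words in peaks therefore have no background here. By gene, Clu and Ereg held 5 each, Ly6a, Il1rn and Areg 3 each, Anxa1 and Spp1 1 each and Il33 0. The AP-1 word occurred at 25.2 per 100 kb beside 16.4 over the genome, with no copy in a peak, GGAATG at 67.0 beside 59.4 and the GCGTG core at 45 beside 39.8. A word is a match of letters and not a site, and words are not independent of the base composition of the windows.

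**Figure D4:**
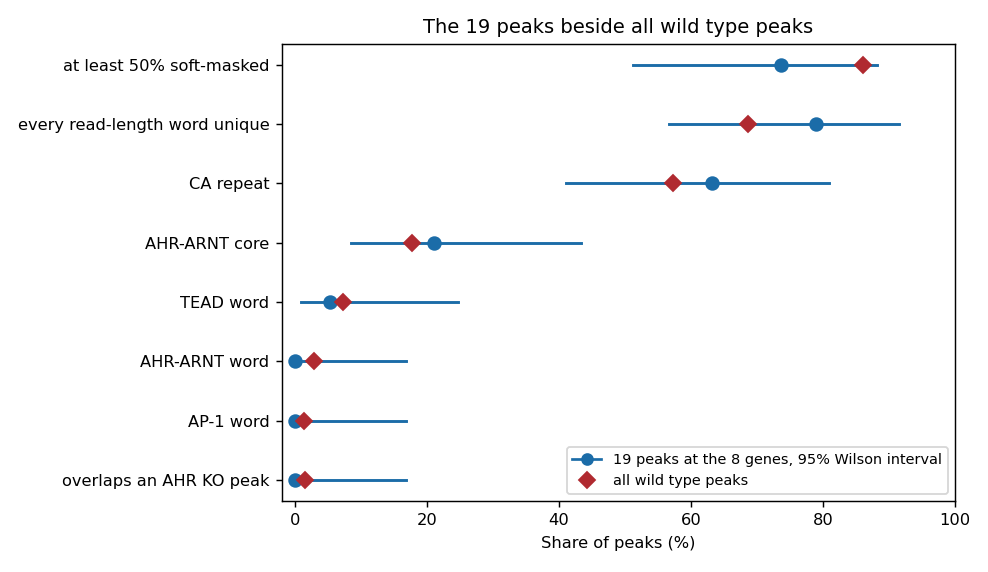
Share of the 19 WT peaks at the 8 genes (blue circles, with 95% Wilson intervals) and of all WT peaks (red diamonds) that hold each property, in percent. For each of the 8 properties the value of the whole list lies inside the interval of the 19 peaks.

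In the AHR KO list none of the 8 genes had a peak, beside 4.47% of protein-coding genes, and a count of 0 of 8 allows up to 37.5%. None of the 19 WT peaks overlapped a KO peak, beside 1.51% of all WT peaks. The nearest KO peaks were 87.4 kb from Ly6a, 103 kb from Spp1 and 163 kb from Anxa1, and between 437 and 670 kb from the other genes. The background read from the score steps was 0.287 fragments in the KO list and 2.01 in the WT list, the latter for 4 cultures together and the former for 1 ChIP library, and the part of depth in the missing KO peaks was not tested.

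For comparison, Cyp1a1, the detoxifying enzyme gene that is the classical AHR target, had a peak that scored 18.0 in a window with no repeat base and with TNGCGTG, and Cyp1b1 one of 10.8 in a window of 2.5% repeat, also with the word. Cyp1a2 had no peak. Of the 4 WT peaks at the Cyp1 genes, these 2 were in windows of under 25% repeat. The other 2, both at Cyp1a1, were CA repeats. Windows of under 25% repeat were absent from the 19 member peaks and rare in the whole list. With 3 Cyp1 genes this is a side by side of values and no test. Of 10 genes of YAP, TAZ, TEAD and their targets, 9 had a peak and Ankrd1 had none, with 45 peaks in all and a median best score of 6.15, and the highest, 10.6 at Tead4, equalled that of Ereg. Of these 45 windows 33 were CA repeats and 2 held TNGCGTG.

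Most other genes of the same pathways also had WT peaks, as did 78.3% of all protein-coding genes. Of 12 further fetal-like and regenerative genes, 10 had a peak (Msln and Basp1 had none), with 31 peaks, none with TNGCGTG, and a highest score of 8.31 at Anxa8. Of 9 genes of the EGF ligands and their receptors, 8 had a peak and Egf had none, with a highest score of 11.3 at the receptor gene Erbb4, which also had the only KO peak of the list and whose window of 1096 kb held 47 WT peaks. Of 9 interleukin-1 family genes, 8 had a peak and Il1f5 had none, led by 9.30 at Il1rl1, the receptor of interleukin-33. Of 9 Ly6 genes, 7 had a peak and Ly6e and Ly6f had none, with scores up to 6.98 at Ly6k. All 8 osteopontin receptors and neighbours of Spp1 in its gene cluster had a peak, up to 8.26 at Mepe, where 2 KO peaks also lay. TNGCGTG was held by 4 windows at 3 EGF family genes and by 1 interleukin-1 family window, and by none of the Ly6 or osteopontin lists.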

How the data were processed

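AHR ChIP-seq was carried out on mouse colon organoids treated with 5 nM FICZ for 1 h, with 4 WT ChIP and 4 WT input libraries and 1 AHR KO ChIP and 1 AHR KO input library. Per the methods and the submitters' processing notes, the authors aligned single-end reads of 101 bases to mm10 with BWA 0.7.15, marked duplicates with Picard 2.1.1 and called peaks against input with MACS2 2.1.1 in standard settings; HOMER 4.8 is also named. How reads with several alignments were kept was not given in the sources used here. The methods state an average depth per sample, while the depth of each single library was not analysed here. The deposited score is a ratio, the authors' fold enrichment of ChIP pileup plus 1 over background plus 1. 0 value columns were left unmapped.

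Peaks were assigned to GENCODE M21 genes by overlap from 1 bp with the gene body and 10 kb either side. Starts were taken as counted from 1, since 9 peaks start at base 1 and 0 at base 0 of their sequence. Distances run from the gene start to the peak midpoint. Exons and starts for the whole-list shares were those of protein-coding genes. Words were counted on both strands of the 200 bp around the midpoint on GRCm38, lower-case bases marked repeats, and a CA repeat needed at least 3 separate copies. The search for motifs and repeats left out 286 WT peaks on unplaced or other sequences. Uniqueness was the share of 101-base words of a peak found once in the assembled chromosomes. Background depth was read from the step of the scores. Promoters and their sequences were from RefSeq (GRCm38.p6). Python 3.11.15, numpy 2.4.6, pandas 2.3.3, scipy 1.17.1 and matplotlib 3.10.9 were used, and the overlap and uniqueness steps were checked on simulated data.

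The members, the comparison lists and the definitions were chosen with earlier results of these data known. All 8 members are named with every peak, and genes of the other lists are named where they hold the highest score, no peak or an AHR KO peak. This extends the rule set at the start (the highest score) to genes chosen after their values were seen. Cyp1b1, beside Cyp1a1, and Ly6i, which shares the Ly6a peak, are named as well. Sequences were shown for the best peak of 4 members and for promoters with a core, while 3 peak sequences and 1 gene of the comparison lists are not reported here. The other sequences were chosen after their values were seen. No test was run, because peaks are not replicates and the lists hold no value per culture. Shares have 95% Wilson intervals, and beside a count of 0 stands the share that 3 counts would make. Alternatives were other flanks, score minimums, overlap rules, word windows and repeat limits.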

Additional observations from a re-analysis of the deposited data

How the results depend on the processing

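Of 37 alternative settings, 27 left the value within 1.5 times, or at 0 where it was 0, and 10 moved it. Reversals were not scored. With the highest 10% of scores alone, 1 member and 1 WT peak were left, and the share of protein-coding genes with a WT peak became 23%. The number of WT peaks at the members was 8 with flanks of 2 kb and 63 with flanks of 50 kb. The number of members with a peak was 5 and 8 in those settings, beside 57.4% and 97.6% of protein-coding genes. The share of genes with an AHR KO peak rose to 10.5% with flanks of 50 kb, where the members still had 0 KO peaks. TNGCGTG was held by 1 member peak when the whole peak or 500 bp was searched, and the core by 4 windows. With scores of at least the median of the list, 14 WT peaks were left at the members. Of these, 9 windows were at least 50% repeat, beside 14 of all 19. No paired analysis was possible because each list gives its peaks for all cultures at once, and for the same reason no culture could be left out. The pooled WT list and the single KO library limit all counts, and a shift of 1 bp in the starts would change no assignment reported here except possibly at a window edge.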

Other observations

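The strongest signal near the EGF receptor ligands fell outside both gene windows, in the interval between Ereg and Areg, and was picked out after its values were seen. This WT peak (chr5:91118575-91118833) scored 13.3, a pileup of 39 fragments and rank 236 of the WT list, above every one of the 19 member peaks. It lay 25.1 kb past the end of Ereg and 20.9 kb upstream of the start of Areg, in no annotated gene and with no KO peak over it. Its window held a TNGCGTG word beside 7 CA copies, with 32.5% of its bases in lower case, and every read-length word of the peak was unique. The sequence is shown with the word in capitals (plus strand of GRCm38).
Peak between Ereg and Areg: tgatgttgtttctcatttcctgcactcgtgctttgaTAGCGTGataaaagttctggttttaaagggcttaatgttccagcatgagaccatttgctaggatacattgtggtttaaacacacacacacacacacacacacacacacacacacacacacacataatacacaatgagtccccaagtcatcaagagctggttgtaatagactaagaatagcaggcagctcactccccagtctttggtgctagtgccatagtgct
A neighbouring peak at chr5:91104890-91105135, 11.4 kb past the end of Ereg, scored 7.31 with 10 CA copies and a GCGTG core. With flanks of 50 kb both peaks count for Ereg, which then had 9 peaks, and for Areg, which had 7. Anxa1 had 15 peaks in that range with a best score of 9.38, and Il1rn had 3 with a best score of 6.31. Which gene, if any, these distant peaks act on was not tested.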
